A study of Mus musculus with 24 samples.

Results

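This account covers 10 genes of the integrated stress response and of serine and asparagine synthesis in pancreatic islets: Atf4, Ddit3, Atf3, Trib3, Chac1, Sesn2, Ppp1r15a, Asns, Psat1 and Phgdh. They were chosen by name, and every noncontrol probe named for one of them was taken, which gave 14 of the 41174 noncontrol probes on the array and 10 of the 18085 genes tested. Phgdh had 3 probes, Trib3 and Sesn2 had 2 each, and the other 7 genes had 1 each. All 14 probes were well above background in both channels on all 24 arrays, and none was saturated.

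The islets came from female NOD/LtJ (NOD) mice, 6 aged 10 days, 6 aged 4 weeks, 6 aged 12 weeks and 6 aged 20 weeks. NOD is an inbred strain in which T cells destroy the insulin-producing beta cells. Each NOD mouse was hybridised alone, in the Cy5 channel, against a Cy3-labelled pool of islet RNA from 6 female NOD.B10Sn-H2b/J (NOD.B10) mice of the same age, the strain the series uses as the healthy control. All islets had been freed by collagenase digestion, and 300 ng of RNA was labelled per sample. The pool was read as 1 control sample per age, so variation among control mice is absent from the tests within an age, and pools that differ would show up in a comparison of ages. Dyes were never swapped: a probe's dye bias remains in each ratio and cancels when ages are compared.

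The integrated stress response begins with kinases that sense misfolded protein, amino acid shortage, heme shortage or viral RNA and that phosphorylate the translation factor eIF2. General protein synthesis then slows while the mRNA of the transcription factor ATF4 is translated more, so the level of Atf4 mRNA is not a measure of its protein. ATF4 switches on genes for amino acid import and synthesis (Asns, Psat1, Phgdh) and further regulators (Ddit3, Trib3, Atf3, Chac1, Sesn2), and Ppp1r15a closes the loop by helping to remove the phosphate from eIF2. Beta cells and the enzyme-secreting acinar cells of the exocrine pancreas both make much secretory protein, and beta cells are a classical setting for studies of this pathway.

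The promoter windows of the members were searched for the letters of the composite CCAAT-enhancer and ATF element (CARE), TGATGNAA on either strand, the motif through which ATF4 is known to act. The windows were RefSeq sequences on GRCm38.p6, from 250 bases before to 50 bases after a gene's start, and all 10 members had at least one, Psat1 having 2. The motif occurred in the windows of 4 of the 10 members and of 4.51% of all 27025 genes with a window. The 4 stretches below, each 30 bases long, are shown because they place these letters beside a gene's start; the capitals mark the match.
Asns, chr6:7693214-7693243, minus strand, match 23 to 16 bases before the start: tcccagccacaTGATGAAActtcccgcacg
Atf3, chr1:191183425-191183454, minus strand, match 110 to 103 bases before the start: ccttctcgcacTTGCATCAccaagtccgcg
Chac1, chr2:119351038-119351067, plus strand, match 193 to 186 bases before the start: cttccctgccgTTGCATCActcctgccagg
Trib3, chr2:152344028-152344057, minus strand, match 15 to 22 bases after the start: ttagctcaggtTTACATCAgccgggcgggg
In Asns the match reads forward along the gene, and in the other 3 it lies on the opposite strand. The cyclic AMP response element TGACGTCA, which is its own reverse complement, occurred in 1 member, Ppp1r15a, from 12 to 5 bases before the start, and in 2.03% of all genes, and is shown because it is the one match of this element among the members.
Ppp1r15a, chr7:45526262-45526291, minus strand: cgcctctccggTGACGTCAgcacagcgccg
The endoplasmic reticulum stress element (ERSE), which is CCAAT and CCACG with 9 bases between them, on either strand, was in none of the members' windows and in those of 0.137% of all genes. A match or its absence in these windows describes the letters and says nothing of what binds there.

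Before the members, the arrays themselves. Between 43.2% and 65.4% of noncontrol spots passed the scanner's background test in the NOD channel, against 40.2% to 61.1% in the pool channel, and the 12 week pool was the dimmest of the pools at 40.2% to 44.4%. Of the marker lists for the islet's cell types, all 9 tested beta cell markers and all 12 acinar markers passed that test on some array of every age in both channels. This need not hold on every array. Acinar cells are the exocrine cells that surround the islets. At 20 weeks, replicates 5 and 6 stood apart from the other 4 mice: their acinar list means were 2.07 and 1.51 on the log2(NOD/pool) scale, against -2.37 to -0.24 in the other 4, and their beta cell list means were -3.23 and -1.65, against -1.21 to -0.70. The acinar list mean in the pool channel ran from 14.48 to 15.87 log2 intensity at 20 weeks, although these arrays were read as holding the same pool. Each channel level was rebuilt from the array's loess-normalized ratio and its scaled average intensity. A pool level is thus not read independently of the NOD signal on its array. The part of each channel in the spread of these acinar ratios was not tested. Across all 24 arrays, 11 pairs had ratios that correlated below -0.3, with a lowest r of -0.54. No such pair was of the same age, and the direction was kept because the labels state both dyes.

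In the ratios of NOD mice to the pool, Ddit3, Trib3, Chac1 and Sesn2 were called lower at 12 weeks, and Psat1 and Phgdh were called higher at 4 weeks, with Asns just under the 2-fold floor there. The mean ratios of Trib3 (0.44) and Chac1 (0.71) were also highest at 4 weeks, and that of Asns (-0.62) was lowest at 12 weeks. Ppp1r15a had loess-normalized mean ratios between -0.19 and -0.03 at the 4 ages. A gene was called when the Benjamini-Hochberg adjusted p of the limma model over all 18085 genes was under 0.05 and the change was at least 2-fold. Each gene stood by its brightest probe, and the dimmer Sesn2 probe had a mean of 0.24 at 12 weeks. At 10 days 1 member was called higher and 0 lower, against a background of 1.61% of all genes higher and 2.36% lower. At 4 weeks 2 members were called higher and 0 lower, against 1.91% and 0.879% of all genes. At 12 weeks 0 members were called higher and 4 lower, against 2.09% and 1.42% of all genes. At 20 weeks 1 member was called higher and 0 lower, against 3.87% and 1.23% of all genes. At an unadjusted p under 0.05, in either direction and without the fold, 3, 5, 5 and 3 members passed in the same limma fit at the 4 ages in order, against 56.4% (10 days), 56.6% (4 weeks), 46% (12 weeks) and 54.5% (20 weeks) of all genes, so these shares lay near or below the background. The median log2 ratio of the 10 members was -0.04 (10 days), 0.62 (4 weeks), -0.55 (12 weeks) and 0.11 (20 weeks), while that of all genes lay between -0.01 and 0.03.

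**Figure D1:**
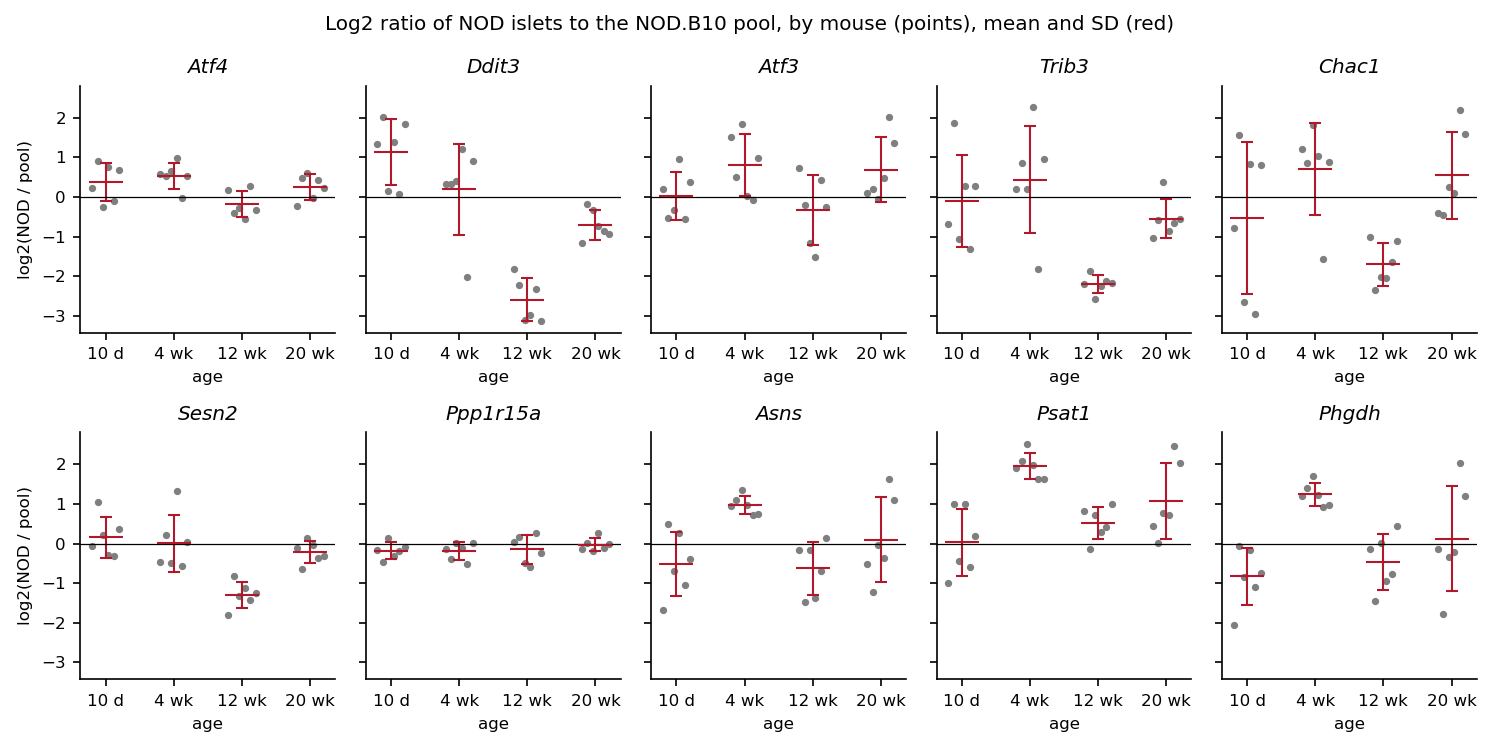
Log2 ratio of NOD islets to the age-matched NOD.B10 pool for the 10 members at 4 ages; each grey point is 1 NOD mouse and the red mark is the mean with its SD (n = 6 mice per age). Ddit3, Trib3, Chac1 and Sesn2 were below zero in all 6 mice at 12 weeks, and Asns, Psat1 and Phgdh were above zero in all 6 mice at 4 weeks. Each gene is shown by its brightest probe, and the dimmer Sesn2 probe was above zero in 4 of 6 mice at 12 weeks.

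Among the transcription factors, Ddit3 was the one called within an age, at 10 days and at 12 weeks. Ddit3 encodes CHOP, the factor tied to death under prolonged stress, and its probe spans chr10:126732518-126732821 on mm9, plus strand. At 10 days its log2 ratio had a lowest value of 0.08, a median of 1.36 and a highest value of 2.02 over the 6 mice, above zero in 6 of 6, and the mean of 1.14 ± 0.83 (SD, n = 6) was called higher (limma, adjusted p = 0.0030). At 4 weeks the values ran from -2.02 through a median of 0.36 to 1.22, and at 12 weeks from -3.12 through -2.65 to -1.81. The 12 week mean of -2.59 ± 0.55 (SD, n = 6) was 6.02-fold lower in NOD islets than in the pool (limma, adjusted p = 6.2e-07). At 20 weeks all 6 mice were still below zero, from -1.15 to -0.16, with a mean of -0.70 and an adjusted p of 0.061 in limma, which missed the threshold. In bulk islet RNA, fewer cells that express a gene and less of its RNA per cell cannot be told apart, here or for any gene that follows.

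Both channels moved beneath these ratios. The Ddit3 level at 12 weeks was 8.29 to 9.60 in the 6 NOD mice and 11.27 to 11.47 in the pool channel of the same arrays, on the scale of log2 intensity. The pool values of an age were read as repeat measures of 1 sample. Their range, here and for the genes that follow, is therefore not a spread among control mice. At 10 days the NOD mice had 7.97 to 10.18, against 7.89 to 8.15 for the pool. The NOD mean was 9.22 (10 days), 10.36 (4 weeks), 8.79 (12 weeks) and 10.39 (20 weeks), and over the same ages the pool mean was 8.08, 10.17, 11.38 and 11.08. The NOD mean of Ddit3 was thus lowest at 12 weeks, the age at which the pool was highest. The pool is 1 sample per age, so the change of the pool with age has no replicate check.

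Atf4 itself had mean ratios under 2-fold at all 4 ages. Its log2 ratio was 0.37 ± 0.48 (10 days), 0.54 ± 0.33 (4 weeks), -0.18 ± 0.33 (12 weeks) and 0.25 ± 0.32 (20 weeks) (SD, n = 6 each). It passed the adjusted p at 10 days (limma, adjusted p = 0.036, 4 of 6 mice above zero) and at 4 weeks (adjusted p = 0.0035, 5 of 6 mice), but the size stayed under 2-fold, so it was not called at any age. Atf3, a stress-induced transcription factor of the same family, had ratios from -1.51 in a 12 week mouse to 2.02 in a 20 week mouse. Its 4 week mean of 0.80 ± 0.79 (SD, n = 6) passed the adjusted p (limma, 0.029) at under 2-fold, and it was not called at any age.

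Trib3, a pseudokinase that holds back ATF4 and AKT signalling, followed Ddit3 at 12 weeks. Its 12 week ratios ran from -2.57 through a median of -2.18 to -1.88, and its mean was 4.58-fold lower in NOD islets (log2 -2.19 ± 0.22, SD, n = 6; limma, adjusted p = 4.4e-05). Its level was 7.34 to 7.70 in the NOD mice and 9.57 to 9.91 in the pool channel at that age. At the other 3 ages the mice were spread over both signs, from -1.31 to 1.86 at 10 days, from -1.83 to 2.28 at 4 weeks and from -1.03 to 0.38 at 20 weeks. Chac1 degrades glutathione. Its 12 week ratios ran from -2.36 through -1.83 to -1.01, with a mean of -1.69 ± 0.54 (SD, n = 6) that was 3.24-fold lower in NOD islets (limma, adjusted p = 0.0090). Chac1 levels at 12 weeks were 10.60 to 11.95 in NOD mice, against 12.95 to 13.00 in the pool. Its 10 day ratios had the widest spread of the members at that age, from -2.94 to 1.58 with an SD of 1.92.

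Sesn2, a leucine-sensing inhibitor of mTORC1 signalling, gave different answers from its 2 probes. The brighter probe (chr4:132047974-132048033 on mm9, minus strand) had 12 week ratios from -1.82 to -0.83 and a mean of -1.29 ± 0.33 (SD, n = 6), 2.45-fold lower in NOD islets (limma, adjusted p = 1.2e-05). The dimmer probe (chr4:132048858-132048917) had 12 week ratios from -0.43 to 0.87 with a mean of 0.24, and it was higher at 4 weeks with a mean of 1.08, where the brighter probe had 0.01. The pool channel of the dimmer probe ran from 8.74 to 10.16 over the 6 arrays at 4 weeks, although these arrays were read as holding the same pool, whereas that of the brighter probe ran from 10.75 to 11.06. The direction of Sesn2 at 12 weeks therefore rests on the brighter probe.

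**Figure D2:**
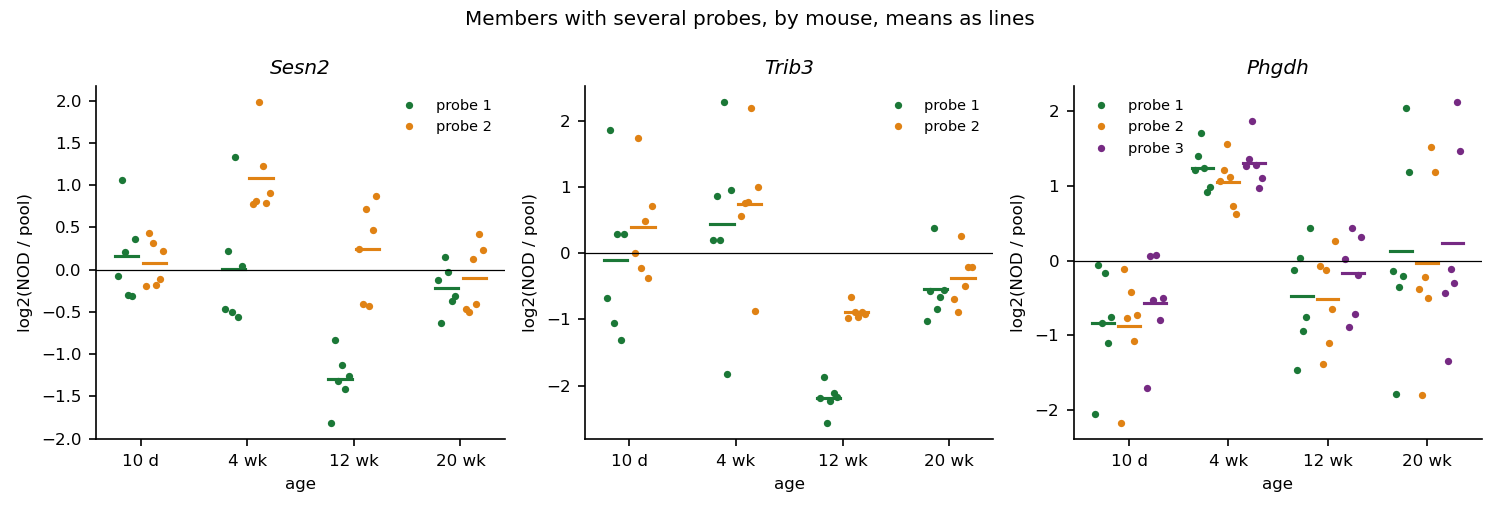
Log2 ratio by mouse and age for the members with several probes, numbered by falling brightness; points are NOD mice and lines are means over 6 mice. The 2 Sesn2 probes part at 4 and 12 weeks, the 2 Trib3 probes differ in size at 12 weeks (-2.19 and -0.89), and the 3 Phgdh probes run together.

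Markers of several cell types changed at the ages where Ddit3 was called. At 10 days 6 of 9 beta cell markers were called higher and 0 lower, with list means per mouse of 0.45 to 1.83 and levels of 10.78 to 12.08 in NOD mice and 10.07 to 10.38 in the pool. At that age all 6 stellate cell and fibroblast markers were called lower, with a median of -1.97 and list means of -2.93 to -0.92 per mouse, as were 2 of 4 endothelial and 3 of 5 B cell markers, while 3 of 5 markers of other endocrine cells were called higher, with a median of 1.91. At 12 weeks 4 of the 9 beta cell markers were called lower and 0 higher, with list means of -1.45 to -0.14 and levels of 10.61 to 11.89 in NOD mice and 12.03 to 12.17 in the pool. Of 6 duct markers 2 were called lower at 12 weeks, and of 8 T cell markers 6 were called higher, as were 4 of 5 B cell and 2 of 6 stellate cell and fibroblast markers. Of 10 immediate early genes and genes known to respond to tissue handling, 2 were called higher and 5 lower at 10 days, 0 and 4 at 4 weeks, and 2 and 1 at 12 weeks. At 20 weeks 0 were called in limma, with 3 at an unadjusted p under 0.05 beside 54.5% of all genes. Beside these and the marker counts, 1.61% of all genes were called higher and 2.36% lower at 10 days. The shares were 1.91% and 0.879% at 4 weeks, 2.09% and 1.42% at 12 weeks, and 3.87% and 1.23% at 20 weeks. Over the 24 mice the Ddit3 ratio had r = 0.43 with the beta cell list mean, and -0.05 with each age's mean taken out. The part of these cell types and genes in the members' ratios was not tested.

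The second Trib3 probe, dimmer than the first, was also below zero in all 6 mice at 12 weeks, with a mean of -0.89 and an adjusted p of 0.0093 (limma, over probes), which is under 2-fold. Ppp1r15a, the regulatory subunit that brings protein phosphatase 1 to eIF2, had mean ratios of -0.18, -0.19, -0.15 and -0.03 at the 4 ages in order, and all 24 mice lay between -0.60 and 0.28. Its level rose and fell in both channels alike: the mean was 10.49, 10.35, 10.98 and 11.36 in NOD mice and 10.67, 10.54, 11.13 and 11.39 in the pool. The 95% intervals of its mean ratio lay between -0.39 and 0.17 at all 4 ages.

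The synthesis enzymes peaked at 4 weeks. Psat1 and Phgdh catalyse steps of serine synthesis from a glycolytic intermediate, and Asns makes asparagine. At 10 days Phgdh was below zero in 6 of 6 mice, from -2.05 to -0.06, with a mean of -0.83 ± 0.72 (SD, n = 6; limma, adjusted p = 0.038) that stayed under 2-fold. At 4 weeks Psat1 ratios (probe at chr19:15979970-15980029 on mm9, minus strand) ran from 1.63 through a median of 1.95 to 2.52, above zero in 6 of 6 mice, and the mean of 1.96 ± 0.33 (SD, n = 6) was 3.90-fold higher in NOD islets (limma, adjusted p = 3.9e-06). Its level was 10.04 to 10.98 in NOD mice and 8.41 to 8.49 in the pool. Phgdh ratios at 4 weeks ran from 0.91 to 1.71 and averaged 1.24 ± 0.29 (SD, n = 6), 2.37-fold higher (limma, adjusted p = 0.0031). Its 3 probes had 4 week means of 1.24, 1.05 and 1.31, and each of them was called; the first and second overlap on chromosome 3 (chr3:98117098-98117157 and chr3:98117094-98117124 on mm9), so they are not separate evidence. Asns ratios at 4 weeks were 0.73 to 1.34, all above zero, with a mean of 0.98 ± 0.23 (SD, n = 6; limma, adjusted p = 0.0079), which lay just under the 2-fold floor.

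These values stood beside those of acinar markers. At 4 weeks 10 of 12 acinar markers were called higher and 0 lower, against 1.91% and 0.879% of all genes. The list mean of every NOD mouse was above the pool, from 1.05 to 1.81. The mean acinar level was 15.45 to 15.99 log2 intensity in NOD mice and 14.09 to 14.40 in the pool channel, while the mean of the 9 beta cell markers was 11.47 to 12.09 in NOD mice and 12.64 to 12.76 in the pool. The acinar pool channel spread more at the other ages, although it was read as 1 pool per age. It ran from 14.55 to 15.56 at 10 days, 14.77 to 15.54 at 12 weeks and 14.48 to 15.87 at 20 weeks. As the pool level is tied to the NOD signal of its array, the part of each channel in these ratios was not tested. Over the 24 NOD mice, which share 4 pools, the ratio of Phgdh had r = 0.94 with the acinar list mean, Asns 0.92 and Psat1 0.86, given as a description. With each age's mean taken out, the same r was 0.97 for Phgdh, 0.93 for Asns and 0.87 for Psat1. Ddit3 had r = 0.04 with the acinar list mean, Trib3 0.28, Sesn2 0.10, Chac1 0.52, Atf3 0.50, Atf4 0.31 and Ppp1r15a -0.18. With the beta cell list mean, Psat1 had r = -0.72, Phgdh -0.65 and Asns -0.55. These were -0.80, -0.75 and -0.72 with each age's mean taken out. The part of acinar tissue or of beta cells in the ratios of the members was not tested.

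**Figure D3:**
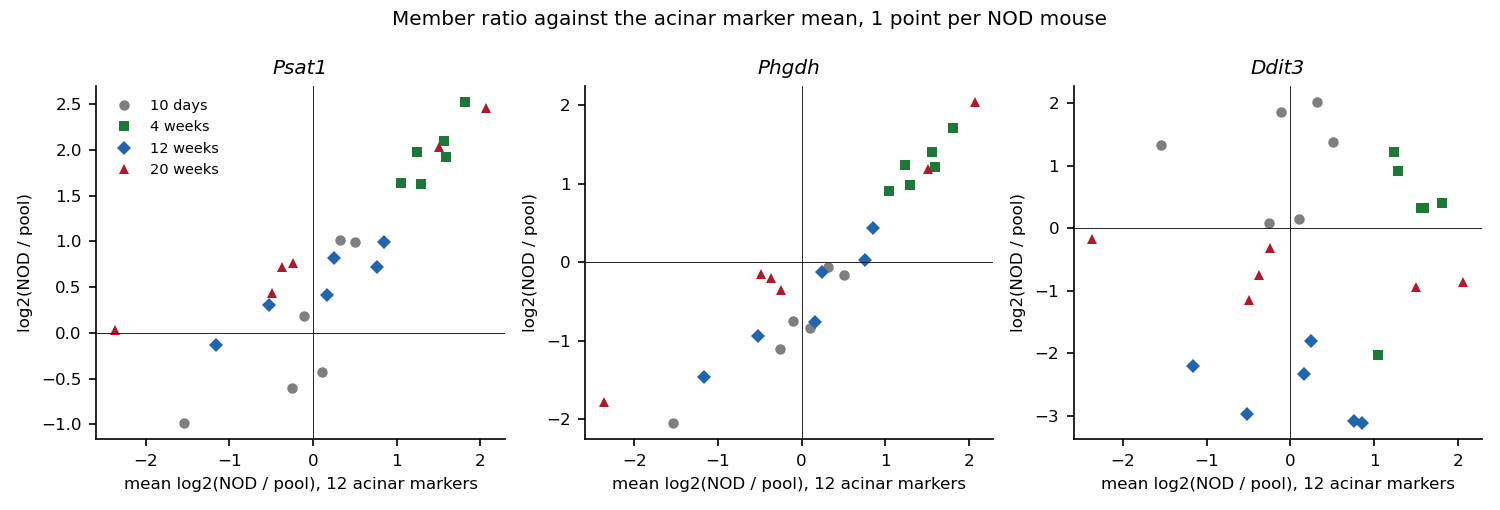
Log2 ratio of Psat1, Phgdh and Ddit3 (vertical) against the mean log2 ratio of 12 acinar markers (horizontal); each point is 1 NOD mouse, with shape and colour for its age. Psat1 and Phgdh run along with the acinar mean within and between ages (r = 0.86 and 0.94 over 24 mice), and Ddit3 does not (r = 0.04).

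Beyond 4 weeks, Psat1 was the member called at 20 weeks. Its 20 week ratios ran from 0.03 through a median of 0.74 to 2.46, all above zero, with a mean of 1.07 ± 0.96 (SD, n = 6; limma, adjusted p = 0.0018). The highest 2 values, 2.46 and 2.04, belonged to replicates 5 and 6, the mice with the high acinar and low beta cell markers. Without those mice the mean was 0.49 (limma, adjusted p = 0.12), and no member was called at 20 weeks. The share of all genes called without them was not computed. The same mice had the highest 20 week ratios of Phgdh (2.04 and 1.19), Asns (1.64 and 1.09), Chac1 (2.19 and 1.59) and Atf3 (2.02 and 1.37). Their Ddit3 ratios, -0.86 and -0.94, were within the range of the other 4. Without them the 20 week means of Asns, Phgdh and Chac1 changed sign, to -0.53, -0.62 and -0.12.

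**Figure D4:**
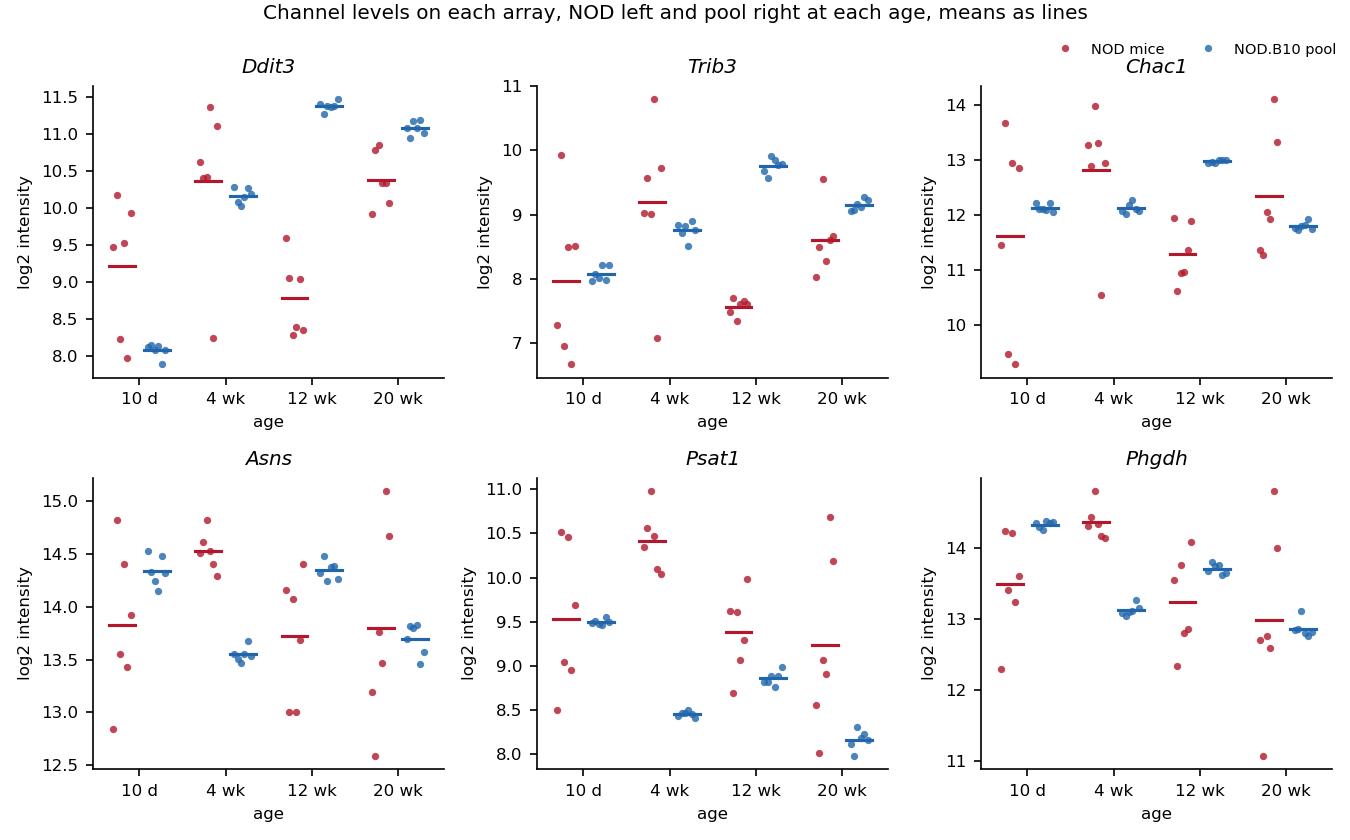
Log2 intensity of 6 members in the NOD channel (red, left at each age) and the pool channel (blue, right), 1 point per array with means as lines. At 12 weeks every NOD mouse lies below the pool for Ddit3, Trib3 and Chac1, and at 4 weeks every NOD mouse lies above the pool for Asns, Psat1 and Phgdh.

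The pool channel of the enzymes also changed with age. The mean level of Psat1 in NOD mice was 9.53 (10 days), 10.42 (4 weeks), 9.38 (12 weeks) and 9.24 (20 weeks), against pool means of 9.50, 8.45, 8.86 and 8.16. For Phgdh the NOD means were 13.50, 14.37, 13.24 and 12.99, beside pool means of 14.33, 13.13, 13.71 and 12.87. For both genes the NOD level was higher at 4 weeks than at 10 days while that of the pool was lower, so both channels entered the higher 4 week ratio.

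The change of the ratio from age to age was tested next. In 4 weeks minus 10 days, Phgdh rose by 2.07 ± 0.46 (log2, SE; limma, adjusted p = 0.00078), Psat1 by 1.93 ± 0.38 (adjusted p = 0.00021) and Asns by 1.49 ± 0.41 (adjusted p = 0.0047). These were 3 of 10 members, with 0 lower, against 5.15% of all genes called higher. On the slide that held 2 mice of each of these ages, the differences were 2.24 for Phgdh, 2.21 for Psat1 and 1.75 for Asns. With slide as a block, which leaves these 2 against 2 mice, Phgdh and Psat1 were still called (limma, adjusted p = 0.034 and 0.014) and Asns was not (0.057). In the same difference over all mice, 10 of 12 acinar markers were called higher (median 1.69) and 5 of 6 stellate cell and fibroblast markers were (median 2.32). All 9 beta cell markers were called lower (median -2.29), as were 3 of 5 markers of other endocrine cells (median -2.66). The share of all genes called lower in this difference was not computed, so the lower counts have no background. The part of these cell types in the members' differences was not tested.

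In 12 weeks minus 4 weeks, 8 of 10 members were called lower and 0 higher, against 3.07% of all genes called lower. Ddit3 fell by 2.79 ± 0.43 (log2, SE; limma, adjusted p = 5.4e-05), Trib3 by 2.64 ± 0.51 and Chac1 by 2.40 ± 0.70. Phgdh fell by 1.71, Asns by 1.60, Psat1 by 1.44, Sesn2 by 1.31 and Atf3 by 1.13, the last with an adjusted p of 0.037. Atf4 had a difference of -0.72 (limma, adjusted p = 0.0080), under 2-fold, and Ppp1r15a one of 0.04. No slide held mice of both ages, so slide and age cannot be told apart in this difference. In it 8 of 12 acinar markers were called lower and 6 of 8 T cell markers higher. The share of all genes called higher in this difference was not computed, so the higher counts have no background. The part of either cell type in the members' values was not tested. T cell list means at 12 weeks were 1.51 to 2.40 per NOD mouse, with levels of 8.83 to 9.96 in NOD mice and 7.30 to 7.94 in the pool.

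In 20 weeks minus 12 weeks, 4 of 10 members were called higher and 0 lower, against 2.01% of all genes called higher. The share called lower was not computed. Chac1 rose by 2.24 ± 0.70 (log2, SE), Ddit3 by 1.89 ± 0.43, Trib3 by 1.65 ± 0.51 and Sesn2 by 1.07 ± 0.27, with adjusted p of 0.020, 0.0025, 0.019 and 0.0053 in limma. These are the 4 members that were called lower at 12 weeks, which is the shared arm of the difference. The dimmer probe of Sesn2 had -0.35 here, not called and of the opposite sign, and the dimmer probe of Trib3 0.51 (limma, adjusted p = 0.32 over probes). On the slide with 2 mice of each age the differences were 0.94 for Chac1, 2.07 for Ddit3, 1.34 for Trib3 and 0.96 for Sesn2. With slide as a block, which leaves these 2 against 2 mice, the adjusted p in limma was 0.69 for Chac1, 0.14 for Ddit3, 0.42 for Trib3 and 0.27 for Sesn2. Without 20 week replicates 5 and 6 the Chac1 difference was 1.57 (limma, adjusted p = 0.11). The moderated F test over the 4 ages passed for 8 of 10 members, all but Atf3 and Ppp1r15a, against 76% of all genes, a share near the background.

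**Figure D5:**
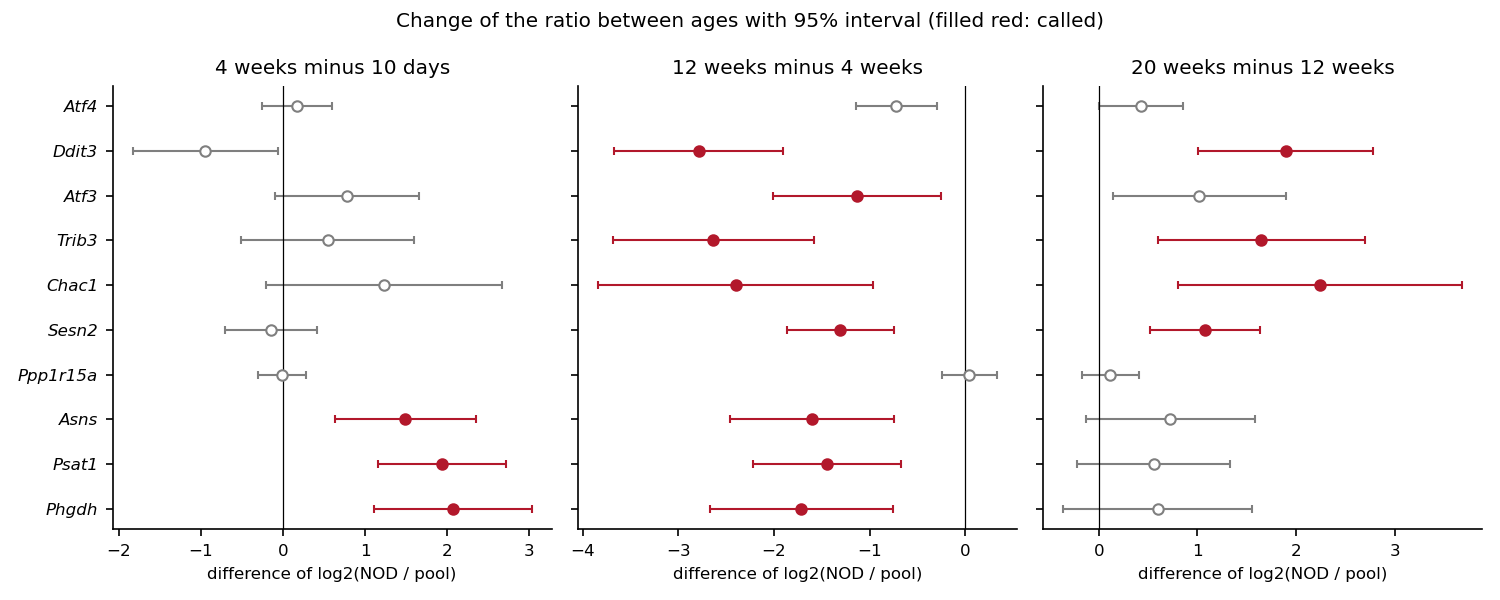
Change of log2(NOD/pool) between successive ages for each member, as the limma estimate with its 95% interval; filled red points passed the adjusted p and the 2-fold floor and open grey points did not. Called members were 3 in 4 weeks minus 10 days, 8 in 12 weeks minus 4 weeks and 4 in 20 weeks minus 12 weeks.

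Since the pools moved with age, the NOD channel was also tested alone. This followed loess within arrays and quantile normalization of the average intensity between arrays. Both steps use the pool channel as well, so these tests are not wholly free of the pools. In 4 weeks minus 10 days 0 members were called in limma (1.88% of all genes higher), with 4 at an unadjusted p under 0.05 beside 38.8% of all genes. Psat1 was higher by 0.89 ± 0.39 (log2, SE; adjusted p = 0.095) and Phgdh by 0.87 ± 0.45 (adjusted p = 0.15), which did not pass. In 12 weeks minus 4 weeks 3 members were called lower, against 0.918% of all genes: Trib3 fell by 1.63 ± 0.50 (adjusted p = 0.016), Ddit3 by 1.57 ± 0.43 (adjusted p = 0.0078) and Psat1 by 1.04 ± 0.39 (adjusted p = 0.048). Sesn2 had a difference of only -0.12 ± 0.26 there (adjusted p = 0.76), while its pool level was higher by 1.19 at 12 weeks than at 4 weeks. In 20 weeks minus 12 weeks Ddit3 alone was called, higher by 1.60 ± 0.43 (adjusted p = 0.035), against 0.199% of all genes.

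The choice of normalization bears on these directions. With each array's ratios centred on their median, without loess, the median of all genes was 0.38 (10 days), -0.15 (4 weeks), 0.50 (12 weeks) and -0.21 (20 weeks). At 10 days 2 members were then called higher and 0 lower, against 14.9% and 0.293% of all genes, and at 4 weeks 1 and 0, against 0.746% and 3.57%. At 12 weeks 1 was called higher and 2 lower, against 23.5% and 0.171% of all genes, and at 20 weeks 0 and 2, against 2.5% and 7.59%. Between ages 1 was called higher and 3 lower in 4 weeks minus 10 days, against 0.614% and 32% of all genes. The counts were 1 and 2 in 12 weeks minus 4 weeks, against 39.1% and 0.138%, and 0 and 4 in 20 weeks minus 12 weeks, against 0.127% and 42.3%, so the 4 lower calls there lay near the background. The medians of all genes in these differences were -0.60, 0.73 and -0.78. Ddit3 at 12 weeks was then -1.53 and Trib3 -1.28, both still called, which is -2.03 and -1.78 relative to the median of all genes. Chac1 was -0.56 and Sesn2 -0.18 at 12 weeks, neither called, or -1.06 and -0.68 relative to it. Psat1 at 4 weeks was 1.61, or 1.75 relative to it, and Phgdh 0.99, or 1.13. Ppp1r15a was 0.59, -0.54, 0.96 and -0.65 at the 4 ages in order, or 0.21, -0.39, 0.46 and -0.44 relative to it. Under this centring 16 of the 23 calls over ages and differences were lost, among them 3 that turned sign: the 12 weeks minus 4 weeks differences of Atf3 and Sesn2 and the 20 weeks minus 12 weeks difference of Sesn2.

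The members also differed in how they varied from mouse to mouse. Over the 24 arrays the ratios of Asns and Phgdh had r = 0.97, those of Psat1 and Phgdh 0.96, and those of Asns and Psat1 0.95. Trib3 and Sesn2 had 0.87 and Ddit3 and Trib3 0.86, but Ddit3 and Psat1 0.06. With age means taken out, Asns and Phgdh still had 0.96, and Ddit3 and Trib3 0.85. Mice of the same age share a pool, so these are descriptions of the arrays. In 4 week replicate 5 the Ddit3, Trib3 and Chac1 ratios of -2.02, -1.83 and -1.57 were the lowest of its age. Its Phgdh ratio of 0.91 was also the lowest of its age and its Psat1 ratio of 1.64 lay next to the lowest (1.63), both above zero as in the other 5 mice. The B cell list mean of this mouse was 1.49, against -0.46 to -0.32 in the other 5, and its stellate cell and fibroblast list mean was 1.29, against -0.45 to 0.76. Its macrophage and dendritic cell mean (0.37) and endothelial mean (0.45) were the highest of its age and its acinar mean (1.05) the lowest; their part in its ratios was not tested. Without that mouse 3 members were called higher at 4 weeks, with Asns the added one (2.28% of all genes), 4 higher in 4 weeks minus 10 days (5.3%) and 8 lower in 12 weeks minus 4 weeks (3.63%).

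Among 14460 other genes, the ratios most like that of Ddit3 over the 24 arrays were those of Mul1 (Pearson r = 0.96), Sqstm1 (0.96), Wdr33 (0.95), Cidea (0.94) and Inhbb (0.94). Mul1 encodes a mitochondrial ubiquitin ligase and Sqstm1 the autophagy receptor p62. Cidea and Inhbb were low at 12 weeks as Ddit3 was, with means of -2.71 and -2.38, whereas Wdr33 averaged only -0.24. Those most like Psat1 were Bspry (0.98), Gpt2 (0.98), Lap3 (0.97), Igf1 (0.97) and Tmem125 (0.97). Gpt2 is the mitochondrial alanine transaminase and Lap3 an aminopeptidase. Those most like Atf4 were Ets2 (0.92), Krt8 (0.92), Tnfrsf12a (0.91), Krt18 (0.91) and Actg1 (0.91), among them the keratin pair of simple epithelia. Krt8 is also on the duct marker list. Their 12 week means were -1.17, -2.12, -2.16, -1.39 and -0.83 in the same order, against -0.18 for Atf4, so the sizes differed.

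Upstream of the members, the eIF2 kinases and eIF2 control genes had ratios under 2-fold. Of 13 tested, 0 were called at any of the 4 ages in limma, with 5, 12, 6 and 6 at an unadjusted p under 0.05 at the 4 ages in order, beside 56.4%, 56.6%, 46% and 54.5% of all genes. Their median ratio was 0.23 (10 days), 0.51 (4 weeks), 0.16 (12 weeks) and 0.13 (20 weeks). In 12 weeks minus 4 weeks 1 of 13 was called lower, against 3.07% of all genes.

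Of 17 other genes of the ATF4 and CHOP pathway, 4 were called higher and 0 lower at 4 weeks, against 1.91% and 0.879% of all genes. At 12 weeks 0 were called higher and 3 lower, against 2.09% and 1.42% of all genes. At 10 days 1 was higher and 1 lower, against 1.61% and 2.36%. At 20 weeks 0 were called, against 3.87% higher and 1.23% lower, with 7 of the 17 at an unadjusted p under 0.05 in limma beside 54.5% of all genes. At 4 weeks Nupr1, a stress-induced chromatin protein, averaged 1.74 (limma, adjusted p = 0.0037), Eif4ebp1, the translation repressor 4E-BP1, averaged 1.59, and Stc2, a secreted glycoprotein, averaged 1.53. At 12 weeks Cebpb, a partner of CHOP, averaged -1.51 (limma, adjusted p = 9.3e-07), Gadd45a -1.49 and Herpud1, a factor of endoplasmic reticulum-associated degradation, -1.45. Cebpb was lower at 10 days too, at -1.13, and Nupr1 higher, at 1.28. The list's median between ages was 0.44 in 4 weeks minus 10 days, -0.82 in 12 weeks minus 4 weeks and 0.34 in 20 weeks minus 12 weeks.

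Most calls among amino acid supply genes within an age were at 4 weeks. Of 9 amino acid transporters, 3 were called higher and 0 lower at 4 weeks, against 1.91% and 0.879% of all genes. Slc7a3, a carrier of cationic amino acids, averaged 1.72, the glutamine and neutral amino acid carrier Slc1a5 averaged 1.44 and the glycine carrier Slc6a9 averaged 1.38. Slc6a9 was the 1 transporter called at 10 days, lower at -1.22 (limma, adjusted p = 0.0054), against 2.36% of all genes called lower. Of 16 further genes of serine, one-carbon and other amino acid synthesis, 3 were called higher and 0 lower at 4 weeks, against the same 1.91% and 0.879% of all genes. These were Cth, which makes cysteine, at 1.65, and the mitochondrial folate enzymes Aldh1l2 at 1.34 and Mthfd2 at 1.33 (limma, adjusted p = 1.4e-06 for the last). Of these 16, 6 were called higher in 4 weeks minus 10 days, against 5.15% of all genes. In 12 weeks minus 4 weeks 4 were called lower, against 3.07% of all genes. The list medians were 0.85 and -0.58 in these differences. The acinar marker values above stand beside these lists as well, and their part was not tested.

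Of 20 cytosolic aminoacyl-tRNA synthetases, which load tRNAs with amino acids, 1 was called lower at 10 days, Vars at -1.27, against 2.36% of all genes. At 4, 12 or 20 weeks 0 were called in limma. In the same fit 13, 18, 13 and 10 had an unadjusted p under 0.05 at the 4 ages in order, beside the same 56.4%, 56.6%, 46% and 54.5% of all genes. Their median ratio was 0.18, 0.52, 0.07 and 0.14 at the 4 ages in order.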

How the data were processed

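Islet RNA of single NOD mice (Cy5) and of an age-matched pool (Cy3) was measured on 24 two-colour arrays. The deposited scanner files hold the authors' spot intensities from Feature Extraction 10.7.3.1, per the file headers, with that software's log10 ratio; the deposited value table holds the same ratios as log2 values (r of 0.9998 or more, column medians from -0.182 to 0.0868, so not centred). From the intensities, normexp background correction (offset 50), loess within arrays and limma 3.58.1 in R 4.3.3 gave log2(NOD/pool). Outlier-flagged spots were left out, and of 41174 probes 25931 were kept, which the scanner marked well above background, in either channel, on 6 or more arrays; the brightest probe stood for each of 18085 genes. One mean per age was fitted, adjusted by Benjamini-Hochberg over all genes. Errors of an age are SDs over 6 mice; those of a difference are SEs. The number of arrays limits the precision. Names came from RefSeq accessions or symbols (GRCm38.p6), probe positions from the files (mm9). The model was tested on simulated data. The members, lists and tests were chosen with earlier results of these data known. Every member is named by every probe; of each pathway list up to 3 called genes per direction and age; of likeness the 5 highest Pearson r. Nothing in the labels ties replicates of an age to separate litters or batches. The alternatives tried were median centring, the scanner's own signals, offset 10, the deposited table, other probe filters, the mean of a gene's probes, slide and replicate blocks, and leaving out mice.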

Additional observations from a re-analysis of the deposited data

Results flagged for a closer look

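In 3 of 40 groups of 6 mice, 1 for each member and age, a single mouse lay far from the others, its gap to the nearest mouse exceeding 0.625 of the group's range; chance flags about 1 in 20 such groups. At 4 weeks, replicate 5 had a log2 ratio of -2.02 for Ddit3, where the nearest mouse had 0.33, and of -1.57 for Chac1, where the nearest had 0.87. That mouse also had a B cell list mean of 1.49, against -0.46 to -0.32 in the other 5 mice of its age, and a stellate cell and fibroblast list mean of 1.29, against -0.45 to 0.76; their part was not tested. At 20 weeks, replicate 3 had a Trib3 ratio of 0.38, where the nearest had -0.56.

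The ratio of NOD islets to the pool was called different between successive ages for 15 combinations of member and ages. Each passed the test of the difference itself and was at least 2-fold. In 4 weeks minus 10 days these were Asns (1.49), Psat1 (1.93) and Phgdh (2.07). In 12 weeks minus 4 weeks they were Ddit3 (-2.79), Trib3 (-2.64), Atf3 (-1.13), Chac1 (-2.40), Asns (-1.60), Psat1 (-1.44), Phgdh (-1.71) and Sesn2 (-1.31). In 20 weeks minus 12 weeks they were Ddit3 (1.89), Trib3 (1.65), Chac1 (2.24) and Sesn2 (1.07). All are log2 differences of at least 2-fold with adjusted p under 0.05 in limma, and the pool of each age is part of each. Of all genes, 5.15% were called higher, 3.07% lower and 2.01% higher in these differences in order. The values are those of each gene's brightest probe. The dimmer Sesn2 probe had -0.84 in 12 weeks minus 4 weeks and -0.35 in 20 weeks minus 12 weeks, neither called. Atf4 in 12 weeks minus 4 weeks (-0.72, adjusted p = 0.0080 in limma) passed the test at under 2-fold.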

How the results depend on the processing

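Over 12 alternatives and 660 recomputed member values, 574 kept their direction and their side of the threshold, 25 lost their call, 11 gained one and 50 changed sign, of which 3 had been called. Median centring without loess gave 28 of the 50. Under it 2 members were called at 10 days, 1 at 4 weeks, 2 at 20 weeks and 3 in 12 weeks minus 4 weeks, against 1, 2, 1 and 8. Its changed signs were, at 10 days, Trib3 0.54, Asns 0.21, Chac1 0.25 and Ppp1r15a 0.59; at 4 weeks, Ddit3 -0.16 and Sesn2 -0.33; at 12 weeks, Asns 0.54, Atf3 0.82, Atf4 0.85, Phgdh 0.69 and Ppp1r15a 0.96; at 20 weeks, Asns -0.56, Atf4 -0.32, Chac1 -0.080 and Phgdh -0.52. In 4 weeks minus 10 days they were Atf3 -0.22, Atf4 -0.96 and Trib3 -0.46. In 12 weeks minus 4 weeks they were Atf3 0.29, Atf4 0.67 and Sesn2 0.15. In 20 weeks minus 12 weeks they were Asns -1.10, Atf3 -0.79, Atf4 -1.17, Phgdh -1.21, Ppp1r15a -1.61, Psat1 -0.93 and Sesn2 -0.65. The cause was not tested. The scanner's own processed signals and the deposited table each gave Asns -0.055 at 20 weeks, Sesn2 -0.055 at 4 weeks and Ppp1r15a 0.064 in 4 weeks minus 10 days. Offset 10 gave Psat1 -0.0051 at 10 days and Ppp1r15a 0.025 in 4 weeks minus 10 days. The mean of a gene's probes gave Trib3 0.14 at 10 days, Sesn2 0.43 in 4 weeks minus 10 days, and 2 calls in place of 4 in 20 weeks minus 12 weeks, where Trib3 (1.08, adjusted p = 0.067 in limma) and Sesn2 (0.36, adjusted p = 0.16) were lost, as was Sesn2 at 12 weeks (-0.53, under 2-fold). Slide as a random block (correlation -0.09) gave Ppp1r15a 0.0045 in 4 weeks minus 10 days. Slide as a fixed block left 2 mice against 2: in 4 weeks minus 10 days 2 of 3 calls held and Asns had 1.75 (adjusted p = 0.057 in limma); 20 weeks minus 12 weeks was left with 0 calls and with Asns -0.58, Phgdh -0.81, Psat1 -0.47 and Ppp1r15a -0.075. Without 20 week replicates 5 and 6, 0 members were called at 20 weeks, and the values were Asns -0.53, Chac1 -0.12 and Phgdh -0.62 at 20 weeks and Phgdh -0.15 and Psat1 -0.032 in 20 weeks minus 12 weeks. Without 4 week replicate 5, an alternative chosen after seeing the data, Ppp1r15a had 0.057 in 4 weeks minus 10 days and -0.024 in 12 weeks minus 4 weeks, and 3, 4 and 8 members were called at 4 weeks and in the differences from 10 days and to 12 weeks. With the scanner's NOD signal scaled to its 75th percentile, 1 member was called in 4 weeks minus 10 days in the NOD channel, against 0. The replicate numbers do not pair the mice: same-numbered mice of different ages had a median r of -0.10 in their deviations, and 5 of 24 correlated best with their own number. With the replicate block, 3, 7 and 4 members were called in 4 weeks minus 10 days, 12 weeks minus 4 weeks and 20 weeks minus 12 weeks in order, and Atf3 in 12 weeks minus 4 weeks had an adjusted p of 0.051 in limma. For the blocks, the mean of a gene's probes and the scaled NOD signal, the share of all genes called was not computed. Nor was it computed without 20 week replicates 5 and 6. The member counts under these settings therefore have no background.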
